A study of Mus musculus with 11 samples.

Results

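The 5 liver samples of db/db mice given phosphate-buffered saline (PBS) were each set against 1 common reference RNA, and the transcripts that liver held more or less of than the reference are described here. The 5 samples, numbered 1, 3, 4, 5 and 6 in their titles, are the PBS arm of a series of 11 samples. The other 6 livers came from db/db mice given the monoclonal antibody 3c7.v44, against the glucagon receptor, at 5 mg/kg and serve here only for their spread. All samples carried the db/db genotype, a loss of the long leptin receptor that makes mice obese and diabetic, and no lean mouse was among them, so that no value can be assigned to that genotype. Age, sex, strain background and feeding state were not given in the labels used here, nor was it stated that the samples came from different mice. The p-values thus cover only how far these 5 samples spread. Liver cRNA was labelled with Cy5 on each array, and the Stratagene Universal mouse reference carried Cy3. Each value is thus log2 of liver over reference, and a log2 ratio of 1 is a 2-fold difference. With no dye swap, a difference between the dyes cannot be told apart from one between liver and reference, and the reference's own spread does not enter the test.

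The liver makes most proteins of blood plasma, clears ammonia through the urea cycle, makes glucose and bile acids, and oxidizes drugs and fatty acids. Hepatocytes, which do most of this work, divide rarely in the adult and share the organ with Kupffer cells (resident macrophages), sinusoidal endothelium, stellate cells and bile duct cells. The reference is a mixture of RNA from cultured mouse cell lines, which divide quickly and differ in origin. A ratio therefore sets quiescent tissue beside growing cells as well as liver beside other cell types. In bulk samples, fewer cells of a type and less RNA per cell cannot be told apart.

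Of 20144 genes named on the array, 15662 had a probe well above background in at least 1 dye on all 5 arrays and were tested, 13391 of them in both dyes. The share of gene spots well above background was 68.5% to 77.1% in Cy5 and 63.4% to 71.6% in Cy3. The log2 ratios of any 2 livers correlated at 0.989 to 0.994 over probes. At an adjusted p under 0.05 (limma, two-sided against 0, Benjamini-Hochberg), 7353 genes were higher in liver, 46.9% of those tested, and 6969 were lower, 44.5%. At least 2-fold, 3076 were higher (19.6%) and 3004 lower (19.2%), and 6077 of these 6080 genes had the same sign in all 5 livers. Nearly every gene thus differed, so the size of a ratio says more than its call. An exact sign flip over 5 arrays could reach no p below 0.0625.

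**Figure D1:**
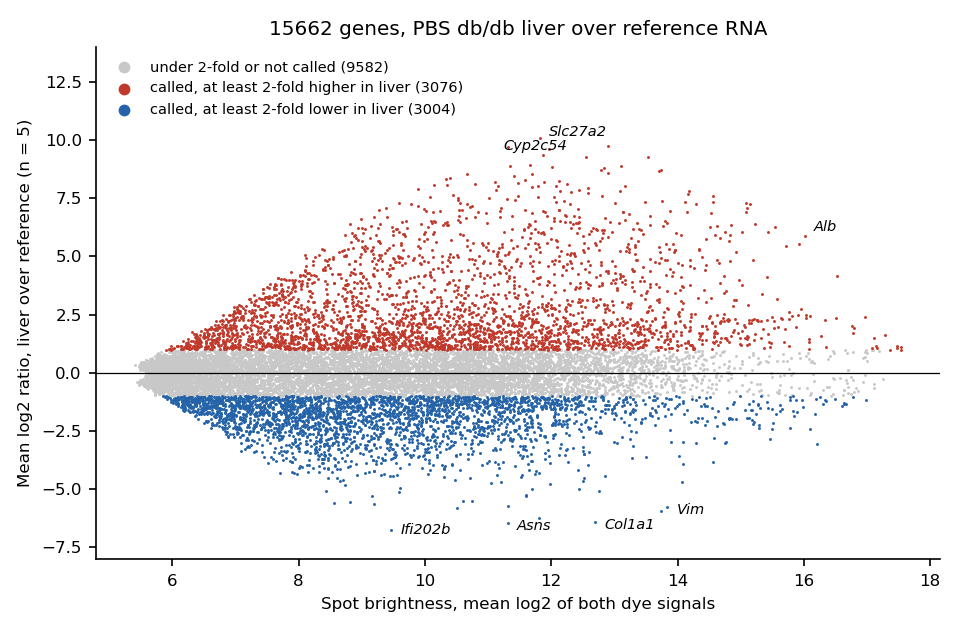
Mean log2 ratio of liver over reference for each of 15662 genes (vertical axis, mean of 5 livers) against spot brightness (horizontal axis, mean log2 of both dye signals), with red and blue points for called genes at least 2-fold higher or lower. The highest ratios pass 10 and the lowest stop at -6.74, and dim genes are drawn toward 0.

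The high ratios reached further than the low ones. At least 16-fold, 591 genes were higher in liver and 81 were lower, and at least 64-fold the counts were 202 and 4. The highest ratio was that of Slc27a2, a fatty acid transporter and acyl-CoA ligase of hepatocytes, at 10.28, 10.02, 10.21, 9.95 and 10.02 in PBS livers 1, 3, 4, 5 and 6 (mean 10.1, SD 0.14, adjusted p = 1.8e-13, limma). Fabp1, the fatty acid binding protein of liver cytosol, came next at 9.62, 9.48, 9.94, 9.98 and 9.70 in the same order, an 858-fold mean ratio. The 5 livers lay close together for both genes, and their order differed between them.

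Further genes among the 12 highest ran from 8.78 to 9.63 in the mean. They included Akr1c6, a hydroxysteroid dehydrogenase (9.63), Rgn, the calcium-binding lactonase regucalcin (9.37), Ambp, the precursor of alpha-1-microglobulin and bikunin (9.28), Cyp2c54 (9.27) and Cyp3a25 (8.90), both cytochromes P450, Aadac, an esterase of the endoplasmic reticulum (8.91), Fgg, the gamma chain of fibrinogen (8.90), Slco1b2, an uptake transporter of organic anions (8.83), and Apoh, a plasma glycoprotein that binds phospholipid (8.78). All of those named belong to hepatocytes by what is known of them, and their SDs over the 5 livers lay between 0.081 for Cyp3a25 and 0.25 for Cyp2c54. Several belong to families of near-identical copies (Cyp2c, Cyp3a and Akr1c), whose probes may share signal.

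A further 500 genes were well above background in liver on all 5 arrays and in the reference on none, so that only a lower bound of their ratio is known. On each array the bound takes the reference signal, or the lowest signal counted as above background in the reference channel where that was higher. The mean liver signal is set against the mean of these values. Slc2a2, the low-affinity glucose transporter of hepatocytes, was at least 237-fold higher, with measured log2 ratios of 7.83, 7.99, 7.95, 7.95 and 7.74. Plbd1, a phospholipase-like protein, was at least 134-fold higher, F13b, a subunit of clotting factor XIII, at least 103-fold, and Ugt2b35 and Ugt2b1, which attach glucuronic acid, at least 92.3-fold and 74.2-fold. Sucnr1, the succinate receptor, was at least 78.1-fold higher. The 5 livers spread little on these genes, with SDs of 0.10 to 0.32.

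Secreted plasma proteins had the highest median of 32 function lists. Of 43 listed carrier and secreted proteins 42 were tested, and 41 were higher and 1 lower, against 46.9% and 44.5% of all genes, with a median log2 ratio of 6.24 against 0.04 over all genes tested. Ambp, Apoh and Rbp4, the retinol carrier (8.73 ± 0.16, SD, n = 5), were the highest. Alb, the carrier albumin and the most abundant plasma protein, stood at 5.95, 5.71, 5.89, 5.85 and 5.98, so that the livers hardly differed. The member that was lower was Fgf21, a fasting and stress hormone of the liver, at -1.40, -1.62, -1.54, 0.58 and -1.36 (mean -1.07, SD 0.93, adjusted p = 0.0051, limma). PBS liver 5 alone lay above the reference for it.

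Clotting and complement genes were higher without exception among the 42 tested (median 5.54), and the lowest of them still reached 0.85. Fgg was followed by Serpinc1, the clotting inhibitor antithrombin, at 8.73 ± 0.16 (SD, n = 5), and C4bp, which restrains complement, at 8.03 ± 0.18. Of 22 apolipoprotein and lipoprotein assembly genes tested, 21 were higher, led by Apof (8.15), Apoe (7.30) and Apoc3 (6.90). Lpl, the lipase that frees fatty acids from lipoproteins in muscle and fat, was lower at -0.72 ± 0.15. All 5 livers lay below 0 for Lpl, between -0.90 and -0.56.

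Nitrogen and glucose metabolism showed the same reach. All 8 tested urea cycle genes were higher (median 4.32), with Otc at 7.65 ± 0.19, Arg1 at 6.42 ± 0.11 and Cps1, the entry step, at 6.33 ± 0.19 (SD, n = 5). Of 51 amino acid breakdown genes, 49 were higher and 1 lower (median 5.24), among them Aass, of lysine breakdown, and Upb1, of pyrimidine and beta-alanine breakdown, both at 8.19. The lower one was Csad, an enzyme of taurine synthesis, at -0.68, -1.14, -1.09, -0.34 and -1.24. All livers lay below the reference, PBS 5 and PBS 1 nearest to it.

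Gluconeogenesis genes were higher in 13 of 14 cases (median 4.33). Fbp1, which makes fructose 6-phosphate from the bisphosphate, stood at 8.69 ± 0.088 and Pck1, the cytosolic PEP carboxykinase, at 8.02 ± 0.19 (SD, n = 5). Pck2, the mitochondrial form of the same enzyme, was lower at -0.57 ± 0.034. Glycogen genes divided by tissue form: 11 of 14 were higher and 3 lower, the latter being Gys1 (-1.71), Pygb (-1.65) and Gyg (-1.28), the forms known from muscle and brain or shared by most tissues. Their liver counterparts Gys2 and Pygl stood at 6.88 and 6.21.

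Detoxification ranked with the plasma proteins. Of 28 drug-metabolizing cytochromes tested, 27 were higher (median 5.28), and the exception was Cyp2c55, a form best known from colon, at -0.74 ± 0.34 (SD, n = 5). Cyp2c54 and Cyp3a25 were followed by Cyp3a16 at 8.44 ± 0.27. All 42 conjugating and other detoxifying enzymes tested were higher (median 5.33), led by Sult2a1, a sulfotransferase of steroids and bile acids (8.54), and the glucuronosyltransferases Ugt2a3 (8.53) and Ugt2b5 (8.37). All 23 bile acid genes were higher (median 4.82, lowest 1.16), among them Abcg5, part of the sterol exporter into bile, at 6.56, and Cyp7a1, whose reaction limits the rate of the classic pathway, at 5.34, 5.79, 5.96, 5.33 and 6.06.

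Organelles of oxidation were higher as whole groups, and by less. All 32 peroxisome genes tested were higher (median 3.28), led by Uox, the urate oxidase (7.80), Phyh, of branched-chain fatty acid oxidation (6.63), and Acox2, of bile acid side-chain oxidation (6.42). All 41 oxidative phosphorylation genes were higher within a narrow band, from 0.65 to 2.91, with a median of 1.40. Sdhb, of complex II, topped it at 2.91 ± 0.082 (SD, n = 5). Fatty acid oxidation and ketogenesis genes were higher in 35 of 37 cases (median 3.19), with the omega-hydroxylases Cyp4a14 (7.96) and Cyp4a10 (6.77) first. Oxct1, which lets other tissues burn the ketone bodies that liver releases, was the lower one at -4.61, -4.37, -4.63, -4.38 and -4.55.

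Lipid synthesis genes were higher in 25 of 26 cases (median 2.54). Elovl2, which lengthens polyunsaturated fatty acids, stood at 7.0 ± 0.28 (SD, n = 5), with the reference above background on 1 array, Dgat2, the last step of triglyceride synthesis, at 5.79 ± 0.090, and Thrsp, a nuclear protein tied to lipogenesis, at 5.54 ± 0.20. Scd2, a desaturase of brain and growing cells, was lower at -4.99 ± 0.20. Of 19 lipid droplet genes tested 17 were higher and 1 lower. Behind Fabp1 came Hsd17b13 (6.89, with another probe at 0.47) and Plin5, a droplet protein of oxidative tissue (6.07). The lower one was Plin3, a droplet coat protein of most cells, at -0.35 ± 0.13.

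Cholesterol synthesis was mixed. Of 24 genes 20 were higher and 2 lower, with a median of 1.1. Tm7sf2 and Sc5d, which act late in the pathway, stood at 4.60 ± 0.16 and 4.19 ± 0.30 (SD, n = 5). Sqle, which makes the epoxide that closes to the first sterol, was lower at -1.51 ± 0.27, and Srebf2, the transcription factor of the pathway, at -1.0 ± 0.12. Iron and metal handling was higher in 18 of 20 genes, led by Tfr2, the hepatocyte transferrin sensor (7.36), Trf, transferrin itself (6.41), and Hamp2, a hepcidin (5.29). Slc11a2, an iron importer, was lower at -0.99, and a second probe of it had the opposite sign.

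**Figure D2:**
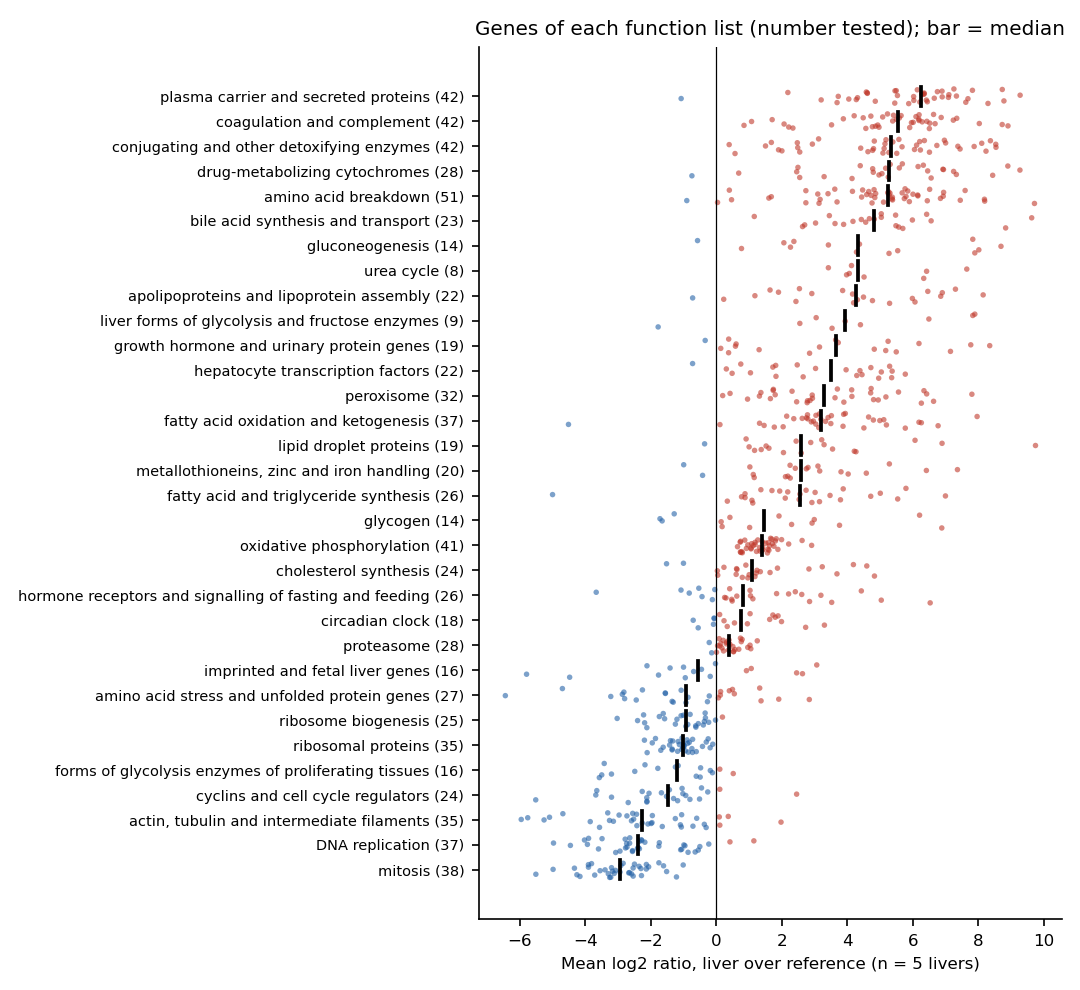
Mean log2 ratio of liver over reference (n = 5 livers) of each tested gene in 32 function lists, ordered by the list median (black bar), with red points above 0 and blue below. Plasma proteins lie highest at a median of 6.24 and mitosis genes lowest at -2.92.

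The lowest ratios belonged to genes of other kinds. Ifi202b, an interferon-inducible DNA sensor whose expression is known to differ between mouse strains, stood at -6.75, -6.68, -7.02, -6.65 and -6.60, a 107-fold mean excess in the reference. Asns, asparagine synthetase, was at -6.44, -6.42, -6.62, -6.36 and -6.33, and Col1a1, a chain of type I collagen, at -6.71, -6.09, -6.35, -6.49 and -6.39. Every liver lay more than 6 log2 units below the reference for all 3 genes. After them came Cpe, a peptide hormone processing enzyme (-6.23, with another probe at -3.23), S100a6, a calcium-binding protein of fibroblasts (-5.95), Dlk1, an imprinted fetal growth gene (-5.79), and Vim, the intermediate filament of mesenchymal cells (-5.75).

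Emp1, a membrane protein of epithelia (-5.72), Trim59 (-5.63), Rpl39l, a ribosomal protein copy known from testis and tumour cells (-5.53), Cdkn2a, the tumour suppressor locus of p16 and p19 (-5.51), and Cenpe, a kinetochore motor (-5.50), completed the 12. Of 318 genes above background in the reference on all 5 arrays and in liver on none, the largest bounds were those of Spinkl, a Kazal-type inhibitor of male glands, at least 19.7-fold lower in liver, Mgarp (14.3-fold), Ptx3, a pentraxin of inflamed connective tissue (12.3-fold), Foxf2, a mesenchymal transcription factor (10.4-fold), Pwwp3b (10.2-fold) and Foxd1, of kidney stroma (9.84-fold). These bounds were far smaller than those of the liver-only genes.

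Cell division genes were lower as a group. All 38 mitosis genes were at least 2-fold lower, against 19.2% of all genes, with a median of -2.92. Besides Cenpe, Mki67, the proliferation marker, stood at -5.14, -4.77, -5.02, -5.0 and -4.96, and Ccnb1, the mitotic cyclin, at -4.37, -4.19, -4.23, -4.41 and -4.42. Of 37 DNA replication genes 35 were lower and 2 higher (median -2.37). Uhrf1, which keeps DNA methylation through replication, was the lowest at -4.96 ± 0.20 (SD, n = 5), then Mcm6, of the replicative helicase (-4.45), and Prim1, of primase (-4.02).

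Of 24 cyclins and regulators tested 22 were lower and 1 higher (median -1.47). Cdkn2a, E2f8, a repressor of the E2F family (-3.67), and Cdkn2b, which encodes p15 (-3.64), were the lowest. The higher one was Cdkn1c, the imprinted inhibitor p57 that holds cells out of the cycle, at 2.38, 2.32, 2.57, 2.59 and 2.41. Protein synthesis genes were lower too: 34 of 35 ribosomal protein genes (median -1.0, none higher) and 23 of 25 ribosome biogenesis genes (median -0.92). Rps4x (-2.19), Rpl3 (-2.11) and Rpl30 (-1.95) were the lowest of the first group, and Npm1 (-3.02), Nop58 (-2.40) and Nop56 (-2.21), nucleolar proteins, of the second. Proteasome genes went the other way by little, 24 of 28 being higher with a median of 0.39, and Psmb5 highest at 1.25 ± 0.040. With the ratio of the scanner software, 28 ribosomal protein genes were lower and 5 higher (median -0.60), and 17 proteasome genes were higher and 5 lower (median 0.21). Ratios are shares of labelled RNA within an array, so a change common to most transcripts cannot be seen.

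Cytoskeleton genes were lower in 31 of 35 cases (median -2.26), with Tuba1a at -5.25 ± 0.27 (SD, n = 5) next to S100a6 and Vim. Tubb2a, a beta-tubulin, was an exception at 1.70, 1.96, 2.08, 2.36 and 1.78. Genes of amino acid shortage and unfolded protein stress divided: 16 of 27 were lower and 8 higher, against 44.5% and 46.9% of all genes. The low ones were led by enzymes of amino acid synthesis, Asns, Psat1 (-4.69), of serine synthesis, and Mthfd2, of mitochondrial folate metabolism (-3.22). The high ones were led by Herpud1 (2.84), which serves degradation at the endoplasmic reticulum, the transcription factor Atf5 (1.91) and the chaperone Dnajb9 (1.37).

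The promoters of some of these genes are shown because plasma protein and cell division genes lay at opposite ends of the range and carry well-known motifs. Each line gives the 100 bases before the RefSeq start of the gene (assembly GRCm38.p6), 5′ to 3′ on the gene's strand. Capitals mark GTTAATNAT, the core letters of a motif known from hepatocyte genes, in the first 4, CCAAT on either strand, the NF-Y motif, in the next 3, TTTGAA, the cell cycle homology region, in Cdc20, and TTTGGCGC, an E2F motif, in Mcm6.
Alb (chr5:90460770-90460869, plus strand): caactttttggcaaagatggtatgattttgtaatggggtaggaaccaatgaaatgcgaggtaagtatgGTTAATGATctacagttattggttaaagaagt
Slco1b2 (chr6:141629418-141629517, plus strand): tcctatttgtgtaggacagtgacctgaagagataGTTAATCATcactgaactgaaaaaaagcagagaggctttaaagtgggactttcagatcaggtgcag
C4bp (chr1:130661619-130661718, minus strand): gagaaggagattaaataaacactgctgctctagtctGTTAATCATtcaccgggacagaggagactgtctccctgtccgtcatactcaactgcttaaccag
Sult2a6 (chr7:14254871-14254970, minus strand): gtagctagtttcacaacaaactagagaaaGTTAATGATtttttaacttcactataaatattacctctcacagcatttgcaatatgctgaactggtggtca
Ccnb1 (chr13:100786487-100786586, minus strand): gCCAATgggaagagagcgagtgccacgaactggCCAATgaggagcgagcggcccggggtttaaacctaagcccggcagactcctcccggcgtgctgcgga
Cdk1 (chr10:69352913-69353012, minus strand): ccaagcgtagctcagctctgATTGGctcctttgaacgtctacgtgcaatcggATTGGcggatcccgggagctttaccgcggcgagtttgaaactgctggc
Top2a (chr11:99024190-99024289, minus strand): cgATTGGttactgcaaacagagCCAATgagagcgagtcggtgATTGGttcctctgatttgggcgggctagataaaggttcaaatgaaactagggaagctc
Cdc20 (chr4:118437344-118437443, minus strand): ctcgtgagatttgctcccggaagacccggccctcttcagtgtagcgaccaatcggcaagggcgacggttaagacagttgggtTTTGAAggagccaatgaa
Mcm6 (chr1:128359706-128359805, minus strand): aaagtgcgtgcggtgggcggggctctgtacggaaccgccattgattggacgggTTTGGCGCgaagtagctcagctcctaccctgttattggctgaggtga
The first is Alb, and Slco1b2, C4bp and Sult2a6 are other genes at least 16-fold higher that hold these letters in this stretch. These 3 were chosen for their high ratios, with the genes of 1 chromosome left out of the choice.

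Over the window from 250 bases before to 50 after the start, promoters were at hand for 12430 genes tested. The letters GTTAATNAT, on either strand, were in 0.66% of them, in 1.93% of genes at least 2-fold higher, in 6.01% of the 449 at least 16-fold higher, and in 0.216% of genes at least 2-fold lower. The C/EBP letters TTNNGCAA were in 9.12% of all tested, 19.6% of those at least 16-fold higher and 45.7% of 35 plasma protein promoters. TATAAA was in 9.62%, 19.8% and 31.4% of the same groups. Promoters of genes at least 16-fold higher also held fewer CpG pairs, with a median observed over expected ratio of 0.247 against 0.71 over all tested.

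Promoters of cell division genes differed from these in their letters. CCAAT was in 77.4% of 31 mitosis promoters and TTTGAA in 71.0%, against 38.7% and 13.1% of all genes tested and 37.9% and 18.1% of the 27025 promoters of the table. The E2F letters TTTCCCGC or TTTGGCGC were in 11 of 30 DNA replication promoters (36.7%), in none of the 31 mitosis promoters and in 2.62% of all genes tested. GTTAATNAT was in none of either list. In 150 bases before the start the order was the same, with CCAAT in 77.4% and TTTGAA in 29.0% of mitosis promoters against 27.9% and 6.01%. A match of letters is a description of sequence and not a bound site.

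Enzymes and other proteins that exist in a liver form and a form of other tissues can be set side by side within 1 function. Of 13 such pairs with both members tested and reported, the liver form was higher than the reference in 12. The other form was lower in 12, and both held in 11. Over all genes 46.9% were higher and 44.5% lower. The pairs were chosen for the known tissues of their forms, so these counts largely follow from the choice. For pyruvate kinase, the last step of glycolysis, Pklr stood at 3.06, 2.46, 3.28, 3.94 and 2.52, and Pkm at -3.41, -3.36, -3.55, -3.49 and -3.28. No value of Pklr overlapped the values of Pkm.

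Slc2a2 and Slc2a1, the glucose transporters, stood at 7.89 and -3.49, and Fabp1 and Fabp5 at 9.74 and -3.33. Mat1a and Mat2a, which make S-adenosylmethionine, stood at 6.84 and -0.27, and Tfr2 and Tfrc, the transferrin receptors, at 7.36 and -0.41. G6pc, the glucose-6-phosphatase of glucose-releasing tissue, was at 5.28 and its wide relative G6pc3 at -0.92. Cpt1a, the gate of mitochondrial fatty acid oxidation, was at 2.80 and the brain form Cpt1c at -0.90. Each of these ratios passed the threshold (adjusted p at most 0.0026, limma).

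A pair of them did not divide in this way. Pfkl, called the liver phosphofructokinase, was lower at -1.79, -1.66, -1.88, -1.74 and -1.79, although Pfkp, the platelet form, was lower still at -3.19 ± 0.10 (SD, n = 5). Another probe of Pfkp stood at -0.098, above Pfkl. Acaca, of fatty acid synthesis, was higher at 0.88 ± 0.43 beside Acacb, whose product restrains fatty acid oxidation, at 2.53 ± 0.39. Acacb was counted here as the liver form, a label that is arguable. In all 13 pairs the mean ratio of the liver form lay above that of its partner at the brightest probe of each gene. For phosphofructokinase this order depends on the probe, and for acetyl-CoA carboxylase on which form is counted as the liver one.

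Forms of glycolysis enzymes known from growing tissue were lower in 13 of 16 cases (median -1.20), with Hk1 at -3.57 ± 0.18 (SD, n = 5) below Slc2a1 and Pkm. Another probe of Hk1 stood at -0.83, above both. Gapdh, often used as a control gene, was the only one of the 16 called higher, at 0.52 ± 0.080. Its 7 probes did not have 1 sign, and their mean was -0.29. The ratio of this gene thus depends on the probe.

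**Figure D3:**
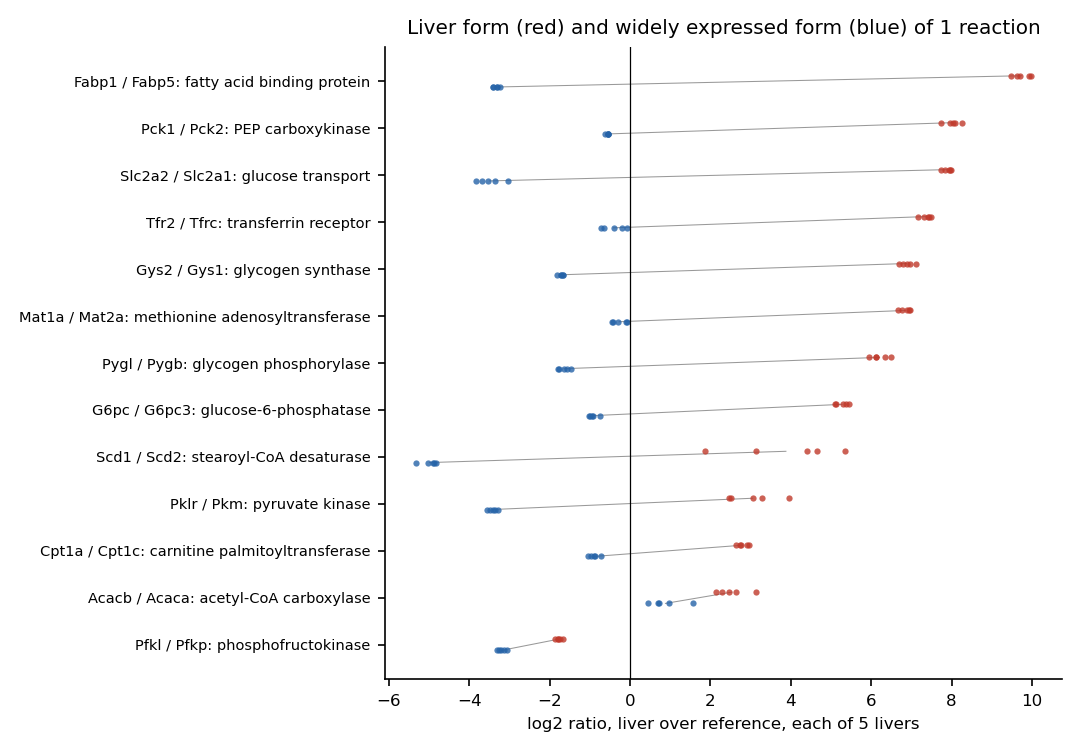
log2 ratio of liver over reference in each of the 5 livers (points) for 13 pairs of genes that serve 1 reaction or function. The liver form is in red and the widely expressed form in blue, with a line joining the means. Liver forms reach from -1.77 for Pfkl to 9.74 for Fabp1, each to the right of its partner, with Acacb drawn as a liver form.

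Of 22 transcription factors of the hepatocyte network 21 were higher and 1 lower (median 3.50). Ppara, the fasting and fatty acid sensor, led at 5.68, 5.57, 6.01, 5.86 and 5.73, then Foxa2, a pioneer factor, at 5.37 ± 0.21 (SD, n = 5), and Nr5a2, of bile acid and cholesterol genes, at 5.36 ± 0.34. Nr1i3 (5.29), Nr1h4, the bile acid sensor (5.04), Cebpa (4.72), Hnf4a (4.45), Creb3l3 (4.39) and Nr1i2 (4.29) followed, the first and last of them drug sensors. Onecut2 (3.97) and Nr0b2, a repressor of bile acid synthesis (3.03 ± 0.41), stood lower, then Foxa1 and Tbx3 (both 1.82), Esrrg (1.73, with the reference above background on 1 array), Gata4 (1.05) and Cebpb (0.49 ± 0.40).

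Foxa3 and Prox1 were not above background in the reference on any array and were at least 6.14-fold and 5.34-fold higher. Onecut1 had a bound of only 1.61-fold. Gata6, which the embryo uses before the liver matures, was lower at -0.72 ± 0.051 (SD, n = 5). Only Gata6 lay below the reference in this network.

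Receptors and signalling genes of feeding and fasting were less one-sided, with 19 of 26 higher, 6 lower and a median of 0.83. Over all genes 46.9% were higher and 44.5% lower. At least 2-fold, 13 of the 26 were higher and 2 lower. Gcgr, the glucagon receptor, was highest at 6.54, 6.44, 6.62, 6.51 and 6.54, an SD of 0.063. Fgfr4 (5.04) and its partner Klb (4.43), which bind gut and liver FGF hormones, came next, then Thrb, the liver thyroid hormone receptor (3.53), Avpr1a, a vasopressin receptor (3.20), Ghr, the growth hormone receptor (2.85), Adipor2 (2.61), Pde3b (2.42), Adcy9 (2.21) and Insr, the insulin receptor (1.84 ± 0.14). The livers were closer to one another on Gcgr than on most genes, whose median SD was 0.102.

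Lepr, the gene mutated in db/db mice, stood at 1.21, 1.03, 0.94, 1.02 and 1.04. Its 3 tested probes had means between 0.24 and 1.05. Adra1b (1.12), Crebbp (1.03), Crtc2 (0.63), Pde4b (0.49), Irs1 (0.47), Adipor1 (0.41), Igf2r (0.30) and Prkaca (0.26) were higher by little. Igf1r, the IGF1 receptor, was the lowest at -3.60, -3.55, -3.87, -3.65 and -3.64. Irs2, an insulin receptor substrate that fasting raises, was lower at -1.07 ± 0.17 (SD, n = 5), as were Thra (-0.82), Adcy6 (-0.53), Nr3c1, the glucocorticoid receptor (-0.43), and Gnas (-0.12, with probes of both signs).

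Growth hormone and urinary protein genes were higher in 17 of 19 cases (median 3.65), with Sult3a1 (8.35) and Mup3, a major urinary protein of a family of near-identical copies (7.77), first. Igf1, the hormone through which growth hormone acts, stood at 5.50 ± 0.26 (SD, n = 5), with its 4 probes between 2.25 and 5.50. Socs2, an inhibitor of growth hormone signalling, was lower at -0.33 ± 0.24. Of 18 clock genes 12 were higher and 2 lower, the latter Bhlhe41 (-0.70) and Arntl, which encodes BMAL1 (-0.55). Hlf (2.73) and Tef (1.99) were among the highest. Imprinted and fetal genes divided, 9 of 16 lower and 5 higher, against 44.5% and 46.9% of all genes. Dlk1 and Hmga2 (-4.47) were low and Meg3 (3.07 ± 0.81) and Spink1 (2.63 ± 0.57) high. Igf2bp3, not above background in liver on any array, was at least 4.30-fold lower.

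Markers of the labelled tissue were high. All 18 hepatocyte markers were above background in both dyes and at least 2-fold higher, from 3.98 to 8.02, with Serpina1a and Cyp2c29 at 7.25 behind Pck1. Of 13 Kupffer cell markers 12 were higher and none lower (median 3.70). Cd5l (6.22 ± 0.13), Vsig4 (5.47 ± 0.14) and Clec4f (5.25 ± 0.087; SD, n = 5 for each) led, and Adgre1, the F4/80 antigen, stood at 0.19 ± 0.26 (adjusted p = 0.063, limma). All 18 liver endothelial markers were higher (median 2.98), led by Ptprb (5.60), Clec4g (4.92) and Stab2 (4.65). Over all genes 46.9% were higher. Both dyes were above background on all 5 arrays for 12 of the 18 endothelial markers, all 12 higher. The same held for 9 of the 13 Kupffer cell markers, 8 of them higher. The others of both lists passed the filter only through the liver dye, which favours a higher call.

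General macrophage markers were otherwise: 5 of 13 tested were higher, none as much as 2-fold, and 7 were lower (median -0.75). Mpeg1 (0.88), Itgam (0.54) and Cybb (0.46) were highest. Gpnmb stood at -3.87, -3.84, -4.04, -3.96 and -3.85, Lgals3 at -3.56 ± 0.15 and Cd14 at -3.53 ± 0.16 (SD, n = 5). The list thus lay on both sides of the reference, with shares near those over all genes (46.9% higher and 44.5% lower), and its median was -1.51 with the ratio of the scanner software. The reference itself holds RNA of cell lines in unknown shares.

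Stellate cell markers were higher in 9 of 12 cases, with Vipr1 (5.64, with another probe at 0.62) and Colec11 (5.36) first. Lrat, the vitamin A storing enzyme, was at least 10.7-fold higher, and Pdgfrb (-1.62) and Des (-1.41) were lower. Fibroblast and matrix genes were lower in 21 of 23 (median -2.59), Thbs1 (-5.28) and Lox (-4.34, with liver above background on 2 arrays) standing next to Col1a1, and Fn1 (0.58), also made by hepatocytes, and Postn (0.32) higher. Of 10 bile duct markers tested 4 were higher and 5 lower, against 46.9% and 44.5% of all genes. Among these markers Prom1 (4.62 ± 0.45, with another probe at 1.28) and Cdh1 (1.24) were high and Krt19 (-3.19), Spp1 (-2.99) and Epcam (-2.86) low. Krt19 and Epcam define that cell type, and both lay well below the reference in every liver.

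Markers of blood cells lay on different sides of the reference, whose own share of such cells is unknown. All 7 erythroid markers tested were higher (median 4.23), the globins Hbb-bt, Hba-a2 and Hba-a1 at 4.56, 4.52 and 4.47, genes with near-identical copies. Of 8 B cell markers tested 5 were lower and 3 higher, against 44.5% and 46.9% of all genes. Ms4a1 (-3.69), Cd79b (-3.55) and Pou2af1 (-2.97) were lowest, and Cd22 was highest at 0.94. Of 13 T and NK cell markers 9 were lower and 4 higher. Lck (-2.72), Tcf7 (-2.69) and Cd3g (-2.26) were lowest, and Nkg7 (1.34 ± 0.038) and Gzma (1.11 ± 0.67) were highest. Among 10 adipocyte markers 8 were higher, but the leading ones, Car3 (6.20), Fabp4 (4.22) and Cidec (at least 7.12-fold), are also known from liver or its macrophages. The remaining 2, Lpl and Adrb3, were lower (for Adrb3, -0.27, with its 2 probes averaging 0.0044).

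Markers of the cells that the reference might hold were mixed. Over all genes 46.9% were higher and 44.5% lower. Skeletal muscle markers were lower in 13 of 14 cases, Acta1 (-2.69) and Chrna1 (-1.96) among them and Myl1 at least 5.65-fold, while Myod1 stood at 0.10. Keratinocyte and mammary markers were higher in 6 of 10, led by Dsp (2.81) and Perp (2.64), junction and membrane proteins of many epithelia. The keratins Krt15 (-0.90) and Krt14 (-0.66) were lower. Kidney and testis markers were lower in 4 of 8 and higher in 3, with Wt1 at -3.55 ± 0.039 and Pax2 at 3.70 ± 0.29 (SD, n = 5), although another probe of Pax2 stood at 0.14.

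**Figure D4:**
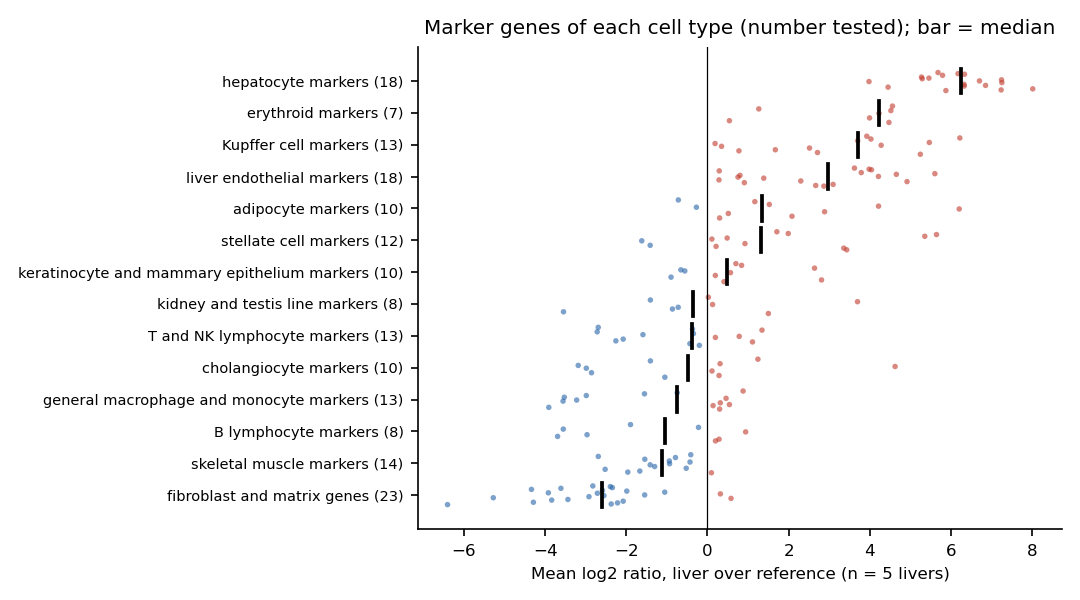
Mean log2 ratio of liver over reference (n = 5 livers) of the tested marker genes of 14 cell types, ordered by median (black bar), with red points above 0 and blue below. Hepatocyte markers centre on 6.25 and fibroblast and matrix genes on -2.59.

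The 5 livers agreed within narrow limits on most genes. The SD over livers had a median of 0.102 and a 90th percentile of 0.198, and 116 genes (0.741%) had an SD above 0.5. Among genes at least 2-fold from the reference the tightest were Tax1bp1, an autophagy adaptor (1.0, SD 0.010), Pdlim7, a cytoskeletal adaptor (-1.35, SD 0.014), Furin, the protease that matures many secreted proteins (2.62, SD 0.018), Pcyt1a, of phosphatidylcholine synthesis (1.55, SD 0.018), and Fbxo36 (1.03, SD 0.019). Furin read 2.61, 2.62, 2.59, 2.64 and 2.62. PBS liver 5 was the farthest from the median in 25.4% of all genes and in 182 of the 500 with the largest SD. It was also the only PBS array of its slide, while PBS 1 and 4 shared a slide, as did PBS 3 and 6, and its scans had the highest median Cy5 signal, 108.5 against 85 in PBS 1. The part of slide and signal in its values was not tested.

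Several lipogenic genes were highest and lowest in the same livers. Pnpla3, a droplet lipase that feeding raises, stood at 0.24, 0.05, 1.24, 3.24 and -0.20 (SD 1.41, mean 0.91, adjusted p = 0.067, limma), and Scd1, the stearoyl-CoA desaturase, at 4.39, 3.13, 4.65, 5.36 and 1.86 (SD 1.38). Fasn, the fatty acid synthase, stood at 2.46, 2.12, 3.25, 3.99 and 1.91, and Elovl6 at 1.69, 2.05, 2.44, 3.17 and 1.18. PBS 5 was the highest and PBS 6 the lowest for all 4. Over the 26 lipid synthesis genes, PBS 5 was the highest liver in 13 and PBS 6 the lowest in 12, against 18.5% and 18.4% of all genes. Such orders of the livers were counted over genes with the liver dye well above background on all 5 arrays, 14823 in all.

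The median gene of that list deviated from its own mean by 0.21 in PBS 5 and by -0.22 in PBS 6. Other genes were highest in PBS 5 as well. Rgs16, a regulator of G protein signalling, stood at 2.12, 1.20, 2.40, 4.08 and 1.15, Cidea, a droplet fusion protein, at 1.66, 0.58, 1.39, 2.95 and 1.03, and Fgf21 was higher there than in the other 4. Mlxipl, the carbohydrate response factor ChREBP, varied little over the same livers (5.01 ± 0.097, SD, n = 5), and Srebf1, of the insulin response, stood at 2.53, 2.72, 3.29, 3.38 and 2.69. The 6 antibody livers had SDs of 1.2 for Pnpla3, 0.36 for Scd1 and 0.46 for Fasn.

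Interferon-induced genes were highest in PBS 6. Cxcl9, a chemokine that draws T cells, stood at 2.47, 1.68, 3.27, 3.80 and 5.06 (SD 1.29), Cxcl10, of the same family, at -0.74, -0.95, -0.35, -0.51 and 1.27, and Gbp2, a guanylate-binding protein of host defence, at -1.19, -0.94, -0.69, -0.21 and 0.66. In a list of interferon-induced genes drawn up after these values had been seen, PBS 6 was the highest liver in 19 of 25 genes, against 23.2% of all genes. PBS 1 was the lowest in 14, against 17.7%. The median member deviated by 0.26 in PBS 6 and by -0.35 in PBS 1. The list as a whole had no side against the reference, with 13 members higher, 9 lower and a median of 0.27 that changed sign with the processing.

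Some immune cell lists had most members highest in that liver, and others did not. PBS 6 was the highest liver for all 7 MHC class II genes tested, a list also added later, for 9 of 12 T and NK cell markers and for 9 of 13 Kupffer cell markers. It was the highest for 5 of 13 general macrophage markers and for 0 of 8 B cell markers, of which it was the lowest for 4. It was the highest for 0 of 7 neutrophil genes, and PBS 5 was the highest for 5 of them. The neutrophil list was also added after the spread over livers had been seen, so its order is no independent contrast. Over all genes PBS 6 was the highest in 23.2% and the lowest in 18.4%, and PBS 5 was the highest in 18.5%. Marco, a scavenger receptor of Kupffer cells, stood at 3.74, 3.83, 3.52, 4.40 and 5.91, and Gzma, a granzyme of T and NK cells, at 0.55, 0.67, 0.78, 1.39 and 2.15. Clec4f, which defines Kupffer cells, ranged only from 5.14 to 5.36. The part of cell numbers in the order of the interferon genes was not tested.

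Acute phase proteins followed a different order. In a list of 22 added later, PBS 1 was highest in 11 and PBS 6 in 10, and PBS 5 was lowest in 14 and PBS 3 in 8. Over all genes PBS 1 was highest in 17.3% and PBS 6 in 23.2%, and PBS 5 was lowest in 28.1% and PBS 3 in 18.1%. Saa1 stood at 5.38, 4.65, 3.80, 3.14 and 4.61, and Saa2 at 9.38, 8.45, 7.86, 7.27 and 8.51. Their sequences are close, and their probes may share signal. Lcn2, an iron-binding protein of infection, stood at 3.49, 2.39, 2.41, 2.21 and 3.23. S100a8 and S100a9, calprotectin of neutrophils, were instead highest in PBS 5, S100a8 at -0.85, -1.59, -1.03, 0.72 and -0.55.

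Some shifts were small and wide. PBS 4 was the highest liver for 27 of 42 conjugating and detoxifying enzymes and for 20 of 28 cytochromes, against 22.1% of all genes, with median deviations of 0.16 and 0.13. PBS 5 was the lowest for 32 of 51 amino acid breakdown genes, against 28.1% of all genes, by a median of -0.11. PBS 3 was the highest for 21 of 34 mitosis genes and the lowest for 24 of 35 ribosomal protein genes. Over all 14823 genes so counted, PBS 3 was the highest for 2814 and the lowest for 2685. Members of a list share each array, so these counts describe 5 livers and not conditions.

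PBS 3 stood apart on a handful of genes, most of them at spots that the scanner software had marked uneven. Over all genes, 10 had PBS 3 lower than the other 4 livers by at least 1 log2 unit and far from them by Dixon's rule for 5 values, against 1 gene with PBS 5 lower in this way and 0 for the others. On the high side the same rule gave 5 genes for PBS 5, 3 for PBS 6 and 0 for the others. For 7 of the 10 the scanner software had marked the gene's only spot on PBS 3 as uneven. Sema6a, a semaphorin, stood at 0.80, -2.18, 0.74, 0.59 and 0.51, Upk1a, a uroplakin, at 2.08, -0.09, 1.77, 1.98 and 1.94, and Sult2a2, a bile acid sulfotransferase, at 7.97, 5.97, 8.15, 7.91 and 7.80. All 3 had an uneven spot, and without it their SDs were 0.13, 0.13 and 0.15 in place of 1.27, 0.92 and 0.90. Gm1987, with the largest SD of all genes measured in each liver, 1.69, ranged from 2.46 in PBS 1 to -1.72 in PBS 3 at a spot with no such mark. For Sema6a and Upk1a the 6 antibody livers had SDs of 0.15 and 0.077.

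Other variable genes had orders of their own. Igfbp2, an IGF-binding protein, stood at 0.01, 1.34, 1.27, -0.73 and 0.60, and Gsn, gelsolin, at -1.11, -0.60, -0.68, -2.61 and -2.09. Meg3, an imprinted noncoding RNA, stood at 3.34, 3.48, 3.37, 1.62 and 3.55, with PBS 5 apart from the other 4, and Mirg, from the same imprinted cluster, at 0.57, 1.30, 0.54, -0.71 and 0.75. PBS 5 was lowest for all 4 genes.

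**Figure D5:**
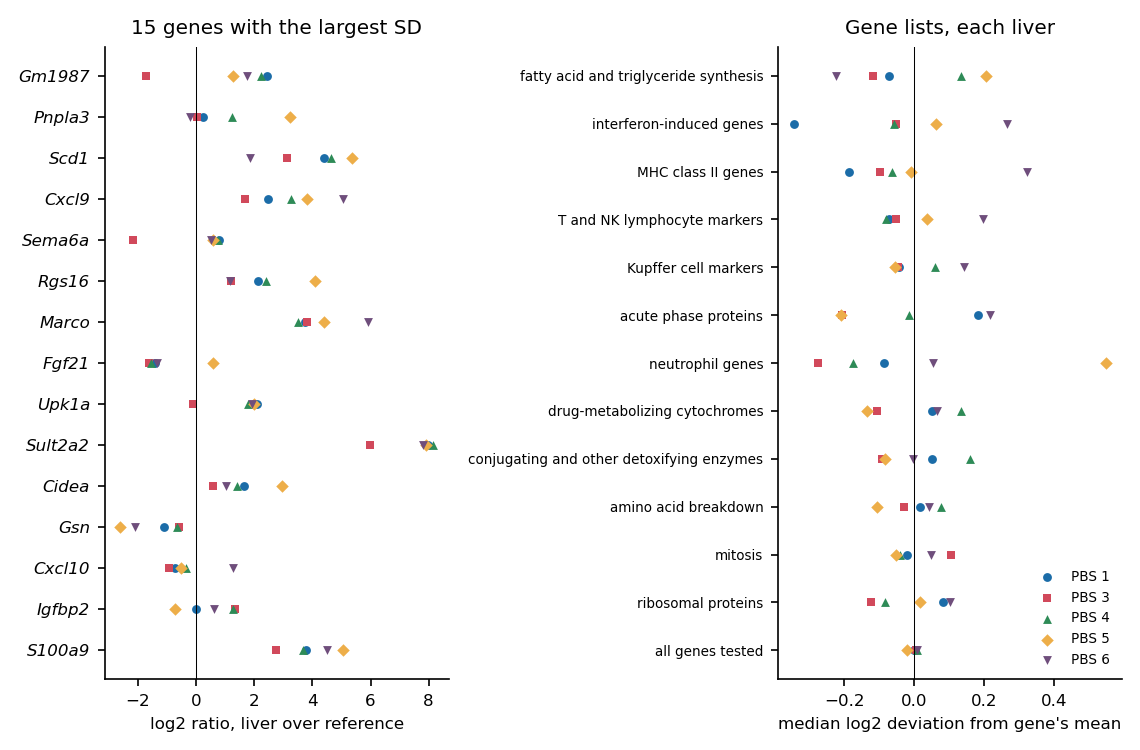
Left, log2 ratio of liver over reference in each of 5 livers for the 15 genes with the largest SD; right, the median log2 deviation of a gene list in each liver from its genes' means, with 1 colour and marker per liver. PBS 5 is highest for lipid synthesis genes (0.21) and PBS 6 for interferon-induced genes (0.26), while all genes together sit between -0.020 and 0.0087.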

How the data were processed

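Agilent arrays compared liver cRNA (Cy5) with Universal mouse reference cRNA (Cy3). Images were read with Agilent Feature Extraction 11, per the submitters' processing notes, or 11.5.1.1, per the file headers. The deposited value table holds log2 ratios that the authors made. They matched ratios recomputed from the deposited median spot intensity of each dye by normexp (offset 50) and loess within arrays (limma) to a median difference of 0.00339, at a correlation of at least 0.999969, which fixes their scale and direction. The deposited log10 ratios of the scanner software correlated with them at 0.879 to 0.887 and served as an alternative, and deposited flags (other values in the scanner files) gave spots above background or uneven. The medians of the 5 columns were -0.0026, 0.0022, 0.00079, 0.0081 and 0.00021.

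Of 39429 gene probes, 26581 were named through RefSeq accessions (GRCm38.p6) and 12848 were not. The 27577 probes with either dye well above background on all 5 arrays were fitted with limma 3.58.1 in R 4.3.3 (intercept only, eBayes, two-sided against 0, Benjamini-Hochberg over these probes). The brightest tested probe stood for its gene, giving 15662 genes. Of 3939 genes with more than 1 tested probe, 799 had probes of both signs, 18 of them at 2-fold. Probes of 1 sign could also differ in size, as for Uhrf1 (-4.96 and -0.81), Cdkn2a (-5.51 and -2.07) and Dlk1 (-5.79 and -2.64). Second probes are not given for every named gene. The code was tested on simulated data.

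Genes were named by rule: the 12 highest and 12 lowest ratios measured in both dyes, the 6 largest bounds each way, the 3 most extreme called members of each list in each direction, all members of the isoform pairs and of the lists of hepatocyte transcription factors and hormone receptors, and the 15 largest and 5 smallest SDs. Genes outside it (Alb, Cyp7a1, Igf1, Fasn, Elovl6, Mlxipl, Srebf1, Gbp2, Saa1, Saa2, Lcn2, S100a8, Mirg and those with promoters shown) were chosen after their values were seen. Members and lists were chosen with earlier results of these data known, and 4 of 50 lists (interferon-induced, MHC class II, acute phase, neutrophil) were added after the spread over livers had been seen. Some genes and isoform pairs that the rule gives are not reported here. Promoters came from RefSeq, with the first listed start of each gene. Alternatives covered the normalization, the centring, the filter on dim probes, the probe per gene, slide, uneven spots and each array left out, of which the uneven spots and the bounds in list medians were added after the data had been seen.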

Additional observations from a re-analysis of the deposited data

Results flagged for a closer look

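Of the 273 genes named by the rule and reported, 16 (5.86%) had 1 liver far from the other 4 by Dixon's rule at 95%, against 847 (5.41%) of all genes tested. Chance alone gives about 1 in 20, a share close to both.

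Wide gaps were few. Fgf21 read 0.5764 in PBS 5 and between -1.618 and -1.361 in the other livers, and Meg3 read 1.622 in PBS 5 and between 3.336 and 3.547 in the others. Cxcl10 stood at 1.275 in PBS 6 against at most -0.3456 elsewhere. PBS 3 was low for Gm1987 (-1.722), Sema6a (-2.177), Upk1a (-0.0944) and Sult2a2 (5.974). The only spots of Sema6a, Upk1a and Sult2a2 were marked uneven on that array, and that of Gm1987 was not.

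The other gaps were narrow. PBS 5 was lowest for F13b (6.388) and Epcam (-3.211) and highest for Gapdh (0.6603). PBS 6 was lowest for Cybb (0.3587) and Thrb (3.256), PBS 3 for Hbb-bt (4.247), PBS 4 for Pck2 (-0.6267) and PBS 1 for Prim1 (-4.426), while PBS 1 was highest for Gata4 (1.228).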

How the results depend on the processing

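The counts of genes higher and lower, and of those at least 2-fold away, stayed within 1.5 times under every alternative but 1. A test against a log2 ratio of 1 (treat) called 2732 genes higher and 2648 lower, in place of 7353 and 6969. Leaving out 1 liver gave 7209 to 7302 higher and 6876 to 6907 lower. The scanner software's own ratio moved the median of all genes by -0.1345 on the log2 scale, turned the sign of 176 called genes and of 0 of those at least 2-fold away, and put 4131 genes at least 2-fold higher and 4438 lower. With slide as a random block (consensus correlation 0.0317) 7333 genes were higher and 6959 lower. No paired analysis was possible because the 5 livers form 1 group and each was set against the same reference.

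The mean of all tested probes turned the sign of 196 called genes, 10 of them at least 2-fold away, and the filter on both dyes that of 3, all at least 2-fold away. Among named genes, with the mean of all tested probes, Gapdh stood at -0.2883 and Adrb3 at 0.004438. Sema6a, not called, lay between -0.0841 and -0.01279 without PBS 1, 4, 5 or 6, and at 0.6589, called, without PBS 3 or without uneven spots. The interferon-induced list had a median of -0.03602 under the scanner software's ratio and of -0.2523 where both dyes had to be above background. The test against a log2 ratio of 1 took the call from 67 of 273 named genes. Under the other alternatives Gm1987, Myod1, Star, Gnas, Cebpb, Nop16, Psmd14 and Psma1 lost their call at least once, Cebpb at 0.2074 with the scanner software's ratio, and Pnpla3, Cxcl10 and Igfbp2 gained one. Under the scanner software's ratio 41 of 50 list medians moved by more than the spread over livers, and with genes at their bounds no list median moved by more than 0.0081.

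Leaving out 1 liver moved the SD by over 1.5 times for 10 of the 15 genes with the largest SD, and did not for Scd1, Cxcl9, Gsn, Igfbp2 and S100a9. Without PBS 5 the SD was 0.6305 for Pnpla3, 0.6386 for Rgs16, 0.4661 for Cidea and 0.1187 for Fgf21, without PBS 6 it was 0.3763 for Marco and 0.2644 for Cxcl10, and without PBS 3 it was 0.5175 for Gm1987. The scanner software's ratio gave 2.395 for Pnpla3, 0.7248 for Cxcl9 and 0.3542 for S100a9, and the cause was not tested. Dim spots limit the reach of a ratio, as the bounds show, and the 5 arrays limit the precision.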
